A study of Homo sapiens with 6 samples.

Results

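The genes described here are NRAS, HRAS, ARAF, BRAF, MAP2K1, MAP2K2 and MAPK3, which encode RAS, RAF, MEK and ERK proteins. They were chosen by name, as the rows of the deposited count tables that carry these symbols, with earlier results of these data known. All 7 were found in both tables, among 41471 gene symbols in the knockdown table and 34157 in the rebastinib (Reb) table. Other genes of the same families were not analysed here. All 7 passed the filter on low counts (on average at least 1 CPM, counts scaled to a common library size, in the experiment), as did 15295 and 15655 genes in all.

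The RNA came from MDA-MB-231, an established human line of triple-negative breast cancer, that is, one lacking the estrogen and progesterone receptors and HER2 amplification. In the first experiment, cells infected with lentivirus and sorted by FACS into stable lines expressed 1 of 3 shRNAs, named scramble, CDK16-sh1 and CDK16-sh2, the last 2 of which target CDK16, a cyclin Y-dependent kinase. In the second experiment, cells received the vehicle DMSO or Reb at 1 or 5 μM for 48 h. Rebastinib is a kinase inhibitor that the study used against CDK16. Each of the 6 conditions had 1 library, so no difference below has a replicate check, and the intervals given are 95% intervals that cover counting error only. Each hairpin line is 1 sorted population, and both treated libraries of an experiment share the same control library.

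RAS proteins are small GTPases at the inner face of the plasma membrane that are switched on by exchange factors below receptor tyrosine kinases and switched off by GTPase-activating proteins. GTP-bound RAS recruits RAF kinases, which phosphorylate the MEK kinases, and these phosphorylate ERK, whose substrates drive proliferation and include its own feedback inhibitors. In triple-negative breast cancer the cascade is a known route of growth signalling. The libraries report RNA levels, and cascade activity, which rests on phosphorylation, was not measured. In bulk RNA, a change in the share of cells that express a gene and a change per cell cannot be told apart.

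The members form 3 pairs of paralogs, NRAS with HRAS, BRAF with ARAF and MAP2K1 with MAP2K2, and MAPK3 (ERK1) as the only ERK gene here. In GENCODE 29, the encoded NRAS and HRAS proteins have 189 residues each and share 85.2% of them, while 73.0% of the coding bases are identical. MAP2K1 and MAP2K2, of 393 and 400 residues, shared 81.9% of aligned residues and 74.4% of bases, and BRAF and ARAF, of 766 and 606 residues, shared 63.3% and 60.3%. The RAF and MEK pairs are each represented by a stretch of 20 codons within 1 coding exon of each gene, picked for the most residues in common and then the most differing bases, to show how paralogs of like protein sequence differ in their bases. Sequences are from GENCODE 29 transcripts on GRCh38, 5′ to 3′ on the coding strand, and capitals mark the bases that differ between the paralogs.
BRAF, chr7:140739878-140739937, minus strand, codons 668 to 687: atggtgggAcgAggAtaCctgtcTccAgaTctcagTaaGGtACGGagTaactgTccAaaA
ARAF, chrX:47570887-47570946, plus strand, codons 521 to 540: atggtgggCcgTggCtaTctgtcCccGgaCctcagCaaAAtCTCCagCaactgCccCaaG
MAP2K1, chr15:66436746-66436805, plus strand, codons 98 to 117: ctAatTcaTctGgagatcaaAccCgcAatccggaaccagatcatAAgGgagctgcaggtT
MAP2K2, chr19:4110596-4110655, minus strand, codons 102 to 121: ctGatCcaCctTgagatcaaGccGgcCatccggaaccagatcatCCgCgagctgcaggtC
The MAP2K1 and MAP2K2 stretches encoded the same 20 residues with 11 of 60 bases differing, and those of BRAF and ARAF shared 18 residues with 18 differing bases. In both pairs the stretch held 48.3% G or C in the first gene and 60.0% in the second. Over the longest annotated transcript, the GC content was 38.4% for NRAS, 40.0% for BRAF, 50.4% for MAP2K1, 58.9% for ARAF, 60.9% for MAP2K2, 61.4% for MAPK3 and 65.8% for HRAS. NRAS and BRAF thus lay in the lowest of 5 equal bins of all genes by GC content, MAP2K1 in the middle bin and the other 4 in the highest.

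The libraries held 25838443 to 50303269 counts. VIM and CD44, which mark this mesenchymal-type line, were at 177 to 833 and 31.8 to 81.0 RPKM (the authors' values, which divide the count by the gene's length and the library total), ESR1 and PGR had at most 16 counts, CDH1 had 4 to 53 counts, and ERBB2 and EPCAM were at 1.55 to 6.54 RPKM. The markers of other cell types stayed low, with at most 35 counts of PTPRC (leukocytes), 4 to 154 of PECAM1 (endothelium) and at most 1 of ALB (liver). CDK16, the targeted gene, had 3223 counts with scramble, 1360 with CDK16-sh1 and 846 with CDK16-sh2, log2 fold changes of -1.52 and -1.82. In the CDK16-sh2 and 5 μM libraries, 31.3% and 35.3% of all counts fell on the 100 most abundant genes, against 24.3% to 25.8% in the other 4, and mitochondrial genes took 16.2% and 16.4%, against 7.19% to 11.3%. The choice of scaling therefore mattered at 5 μM. TMM scaling was used, and scaling by library totals instead moved the median of all genes by -0.68 on the log2 scale at 5 μM, by -0.19 with CDK16-sh2 and by at most 0.05 in either direction in the other comparisons.

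HRAS was the most abundant of the 7 transcripts per length in all 6 libraries and BRAF the least abundant in 5 of them. In the scramble library HRAS was at 45.6 RPKM, followed by ARAF at 26.9, MAP2K2 at 25.9, NRAS at 19.1, MAP2K1 at 17.9, MAPK3 at 7.23 and BRAF at 1.29. The counting intervals of neighbours in this order overlapped for ARAF and MAP2K2, and for NRAS and MAP2K1. In the DMSO library HRAS was at 72.8 RPKM and MAP2K1 came second at 41.4, ahead of MAP2K2 at 19.8, ARAF at 14.5, NRAS at 11.6, MAPK3 at 7.63 and BRAF at 1.03. No counting intervals overlapped between neighbours there. At 5 μM Reb the order was different below the top, with HRAS at 58.5 and MAP2K1 at 57.3 RPKM within each other's counting interval, NRAS next at 15.6, then MAPK3 at 7.28, and MAP2K2 at 4.43, BRAF at 3.38 and ARAF at 2.99 last, the last 2 with overlapping intervals.

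**Figure D1:**
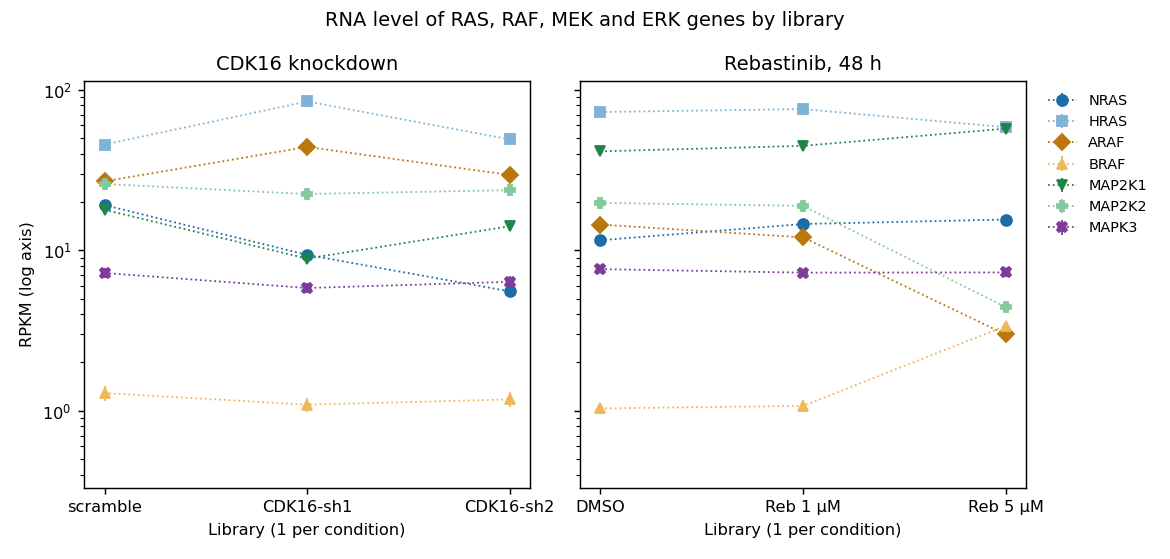
RNA level of the 7 genes in RPKM (log axis) in the 3 libraries of each experiment, 1 library per condition; bars are 95% counting intervals, mostly smaller than the symbols, and dotted lines only join the values of 1 gene. HRAS lies highest in every library, and ARAF and MAP2K2 end at 2.99 and 4.43 RPKM at 5 μM.

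Under TMM scaling, NRAS was the only one of the 7 genes past 2-fold with a CDK16 hairpin, and at 5 μM Reb 5 of 7 were past 2-fold, 3 higher and 2 lower. With CDK16-sh1 no member was past 2-fold, where 6.86% of all genes tested were at least 2-fold lower and 4.33% at least 2-fold higher. NRAS and MAP2K1 lay so close to 2-fold there that the count was 1 with DESeq2 size factors and 2 under library totals. With CDK16-sh2, 1 member was lower and none higher, against 7.62% and 2.2% of all genes. At 1 μM Reb no member was past 2-fold, with a background of 1.92% lower and 1.28% higher. At 5 μM, where 27.2% of all genes were at least 2-fold lower and 23.6% higher, the members' 2 of 7 lower lay near the background, and 3 of 7 higher is too small a count to set the members apart and came to 1 under library totals.

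**Figure D2:**
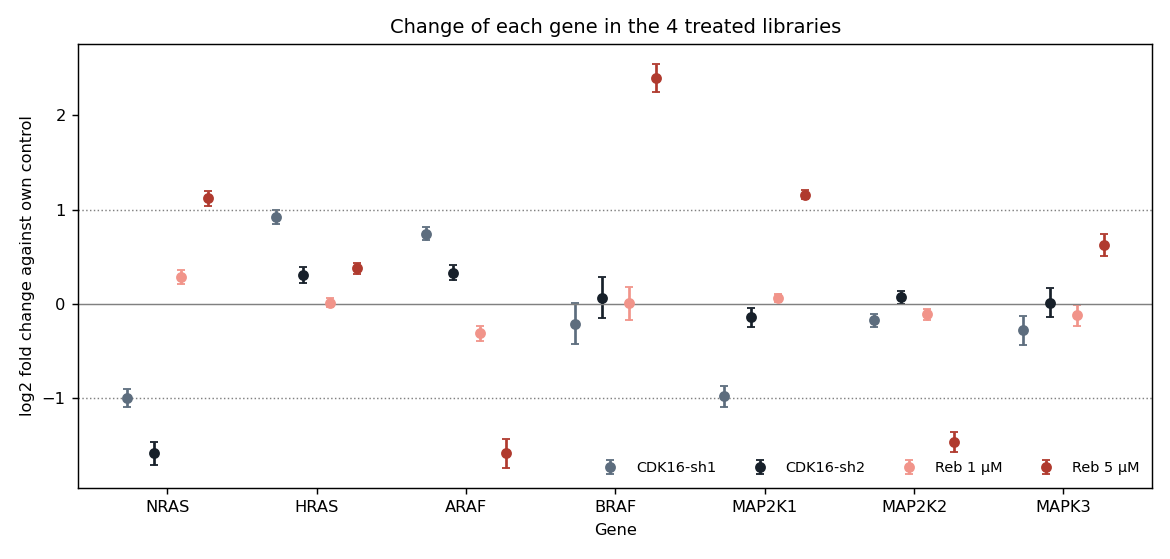
Log2 fold change of each gene in the 4 treated libraries against its own control library (TMM scaling); bars are 95% counting intervals and dotted lines mark 2-fold. NRAS lies lower with both hairpins (-0.999 and -1.59) and higher at 5 μM (1.12), and BRAF at 5 μM (2.39) lies farthest from 0.

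With the 2 treated libraries of an experiment taken as 1 group, the difference between them serves as the spread. In this fit no gene was called for the hairpins (0% of 15295, edgeR quasi-likelihood, Benjamini-Hochberg adjusted p of at most 0.05 and at least 2-fold), and 0 were called by DESeq2. An unadjusted edgeR p under 0.05 was seen for 382 genes, which is 2.5% of those tested and a smaller share than the p threshold itself. NRAS was the only member among those 382, with a log2 fold change of -1.26, an unadjusted p of 0.0131 and an edgeR adjusted p of 1.00, and it was lower in 2 of 2 hairpin libraries. For Reb, edgeR called 12 genes (0.0767%) and DESeq2 17, and no member was among them. BRAF had the smallest unadjusted p of the members there, 0.183 in edgeR, with a log2 fold change of 1.65.

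NRAS, on chromosome 1 (114704469 to 114716894, GRCh38), encodes a RAS GTPase that travels between the Golgi and the plasma membrane. It had 2200 counts with scramble, 1332 with CDK16-sh1 and 679 with CDK16-sh2, which is 80.8, 40.4 and 26.9 CPM after TMM scaling. The 2 hairpin libraries were thus both lower than the control, CDK16-sh2 more so. The log2 fold changes were -0.999 (-1.10 to -0.90), just short of 2-fold, and -1.59 (-1.72 to -1.46), and the hairpin libraries differed from each other by -0.59 (-0.72 to -0.45). Under DMSO, 1 μM and 5 μM Reb the NRAS counts were 2588, 3204 and 2607, or 44.4, 54.1 and 96.4 CPM. Both doses were higher than the vehicle, by 0.28 (0.21 to 0.36) at 1 μM and by 1.12 (1.04 to 1.20) at 5 μM, of which 0.43 remained under library totals. NRAS thus went one way with the hairpins and the other way with the drug.

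HRAS, on chromosome 11 (532242 to 537287), encodes a RAS GTPase whose membrane anchoring relies on palmitoylation beside farnesylation. Its counts were 2185 with scramble, 5018 with CDK16-sh1 and 2507 with CDK16-sh2, or 80.3, 152 and 99.2 CPM. CDK16-sh1 stood highest, with a log2 fold change of 0.92 (0.85 to 1.00), and CDK16-sh2 was at 0.30 (0.22 to 0.39). With DMSO, 1 μM and 5 μM Reb the counts were 6789, 6948 and 4085, or 116, 117 and 151 CPM. The 1 μM library was level with the vehicle within counting error (0.01, -0.04 to 0.06). The value at 5 μM was 0.38 (0.32 to 0.43) and turned to -0.31 under library totals, so no direction is given for it.

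ARAF, on chromosome X (47561100 to 47571920), encodes the RAF kinase with the weakest known kinase activity of its family. Its counts were 2459 with scramble, 4982 with CDK16-sh1 and 2868 with CDK16-sh2, or 90.3, 151 and 113 CPM. Both hairpin libraries were above the control without reaching 2-fold, at 0.74 (0.67 to 0.81) and 0.33 (0.25 to 0.41). The second experiment gave 2573 counts for DMSO, 2102 for 1 μM and 398 for 5 μM, or 44.1, 35.5 and 14.7 CPM. ARAF was lower at both doses, by -0.31 (-0.40 to -0.23) at 1 μM and past 2-fold at 5 μM, by -1.58 (-1.74 to -1.43), which is 0.334 of the vehicle level. Its value at 5 μM was the lowest of the members, with an interval that overlapped that of MAP2K2.

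BRAF, on chromosome 7 (140719327 to 140924764), encodes the RAF kinase with the highest basal activity and a frequent oncogene in other cancers. In the knockdown experiment its counts were 346, 362 and 336 with scramble, CDK16-sh1 and CDK16-sh2, or 12.7, 11.0 and 13.3 CPM. Neither hairpin library differed from the control beyond counting error, at -0.21 (-0.43 to 0.01) and 0.06 (-0.16 to 0.29). The drug series gave 540 BRAF counts for DMSO, 550 for 1 μM and 1320 for 5 μM, or 9.26, 9.28 and 48.8 CPM. The 1 μM library was level with the vehicle (0.00, -0.17 to 0.18), and the 5 μM library alone stood apart, at 2.39 (2.25 to 2.54) or 5.25-fold. Under library totals the value at 5 μM was 1.70, still past 2-fold. BRAF shares 1239 exon bases with NDUFB2 on the opposite strand, which had 938, 1019 and 1493 counts in these 3 libraries, or 16.1, 17.2 and 55.2 CPM, and thus was also highest at 5 μM. The part of the shared bases in the BRAF value was not tested. The library kit kept strand, but the strand setting of the counting is not given in the sources used here, so reads in the shared bases cannot be assigned with certainty.

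MAP2K1, on chromosome 15 (66386817 to 66492312), encodes MEK1. It had 1739 counts with scramble, 1067 with CDK16-sh1 and 1461 with CDK16-sh2, or 63.9, 32.4 and 57.8 CPM. The 2 hairpin libraries differed from each other by 0.84 (0.72 to 0.95), more than CDK16-sh2 differed from the control, with log2 fold changes of -0.98 (-1.09 to -0.87) and -0.14 (-0.25 to -0.04). Its counts in the drug series were 7827 (DMSO), 8312 (1 μM) and 8114 (5 μM), or 134, 140 and 299.9 CPM. The values were 0.06 (0.02 to 0.11) at 1 μM and 1.16 (1.12 to 1.21) at 5 μM, and the second was 0.47 under library totals, which is short of 2-fold. Its exons are overlapped by 2 genes on the opposite strand, SNAPC5 by 216 bases and CTD-3185P2.1 by 432 bases. In the Reb experiment SNAPC5 was at 41.7, 28.0 and 30.6 CPM and CTD-3185P2.1 at 11.8, 15.2 and 30.2 CPM. CTD-3185P2.1 was thus highest at 5 μM, as MAP2K1 was. With scramble, CDK16-sh1 and CDK16-sh2, CTD-3185P2.1 was at 12.2, 7.22 and 12.3 CPM, so lowest with CDK16-sh1, as MAP2K1 was. SNAPC5 was at 19.5, 26.6 and 26.7 CPM in those libraries. The part of the shared bases in the MAP2K1 values was not tested in either experiment.

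MAP2K2, on chromosome 19 (4090321 to 4124129), encodes MEK2. Its counts hardly moved in the knockdown experiment, 3504 with scramble, 3754 with CDK16-sh1 and 3417 with CDK16-sh2, or 129, 114 and 135 CPM. The log2 fold changes were -0.18 (-0.24 to -0.11) and 0.07 (0.00 to 0.14). Among the Reb libraries, DMSO had 5204 counts, 1 μM had 4893 and 5 μM had 873, or 89.2, 82.5 and 32.3 CPM. The 5 μM library was far below the other 2, at -1.47 (-1.57 to -1.36) or 0.362 of the vehicle level, whereas 1 μM was at -0.11 (-0.17 to -0.06).

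MAPK3, on chromosome 16 (30114105 to 30123506), encodes ERK1, the last kinase of the cascade. The counts were 685, 683 and 642 with scramble, CDK16-sh1 and CDK16-sh2, or 25.2, 20.7 and 25.4 CPM, at log2 fold changes of -0.28 (-0.44 to -0.13) and 0.01 (-0.14 to 0.17). With DMSO, 1 μM and 5 μM Reb the counts were 1409, 1315 and 1006, or 24.2, 22.2 and 37.2 CPM. MAPK3 stayed within 2-fold in all 4 treated libraries. Its value at 5 μM, 0.62 (0.50 to 0.74), turned to -0.07 under library totals, so it has no settled direction, and at 1 μM it was -0.12 (-0.23 to -0.01).

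A ratio of paralogs within a library does not depend on how libraries are scaled. For RAS, 1.01 NRAS counts were seen per HRAS count with scramble, 0.265 with CDK16-sh1 and 0.271 with CDK16-sh2. The ratio was lower in both hairpin libraries by similar amounts, 3.79-fold (log2 -1.92, -2.05 to -1.80) and 3.72-fold (log2 -1.89, -2.05 to -1.74), although the single genes changed differently in the 2 lines. With the GC and length trends described below removed, the falls were 1.95-fold (log2 -0.96) and 3.26-fold (log2 -1.71), so that they were no longer similar. Per length, NRAS made up 29.6% of the pair with scramble and 9.96% and 10.1% with the hairpins. In the Reb experiment the ratio was 0.381 with DMSO, 0.461 at 1 μM (log2 0.27, 0.18 to 0.36) and 0.638 at 5 μM (log2 0.74, 0.65 to 0.84). HRAS counts thus outnumbered those of NRAS in every library but scramble, where the counts were near parity. Counts do not allow for gene length. Per length HRAS led in every library, and the NRAS/HRAS ratio was 0.42 with scramble.

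For RAF, the BRAF/ARAF ratio of counts turned over at 5 μM, while per length the pair came to be level within counting error. It was 0.210 with DMSO, 0.262 at 1 μM (log2 0.32, 0.12 to 0.51) and 3.32 at 5 μM, a 15.8-fold change (log2 3.98, 3.77 to 4.20). Per length, BRAF went from 6.67% of the pair with DMSO to 53.0% at 5 μM, with opposite changes in both genes. The per-length ratio at 5 μM was 1.13, and the counting intervals overlapped (BRAF 3.20 to 3.56 RPKM, ARAF 2.70 to 3.30). The part of the exon bases that BRAF shares with NDUFB2 in this ratio was not tested. With the hairpins the ratio was 0.0727 (log2 -0.95, -1.18 to -0.72) and 0.117 (log2 -0.26, -0.50 to -0.03), against 0.141 with scramble.

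For MEK, the MAP2K1/MAP2K2 ratio was 1.504 with DMSO, 1.70 at 1 μM (log2 0.18, 0.10 to 0.25) and 9.29 at 5 μM, a 6.18-fold change (log2 2.63, 2.51 to 2.74). MAP2K1 made up 67.7% of the pair per length with DMSO and 92.8% at 5 μM. In the knockdown experiment MAP2K2 was the more abundant of the pair, with ratios of 0.496 for scramble, 0.284 for CDK16-sh1 (log2 -0.80, -0.93 to -0.67) and 0.428 for CDK16-sh2 (log2 -0.22, -0.34 to -0.09). The 2 control libraries therefore differed in which MEK gene led, 0.496 with scramble and 1.504 with DMSO, or 0.69 and 2.10 per length. They come from separate experiments with 1 control library each, and the reason for the difference was not tested. In all 3 pairs the counts gave a lower ratio in both hairpin libraries and a higher one at both doses than in the respective control, and the first gene of each pair is the one of lower GC content. With GC and length trends removed, a setting chosen after seeing the data, this shared direction was lost, since the change was 0.068 for BRAF/ARAF with CDK16-sh2 and, at 1 μM, -0.17 for NRAS/HRAS and -0.0072 for MAP2K1/MAP2K2. At 5 μM the changes were then 3.25 for BRAF/ARAF (9.51-fold), 2.06 for MAP2K1/MAP2K2 and 0.18 for NRAS/HRAS.

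**Figure D3:**
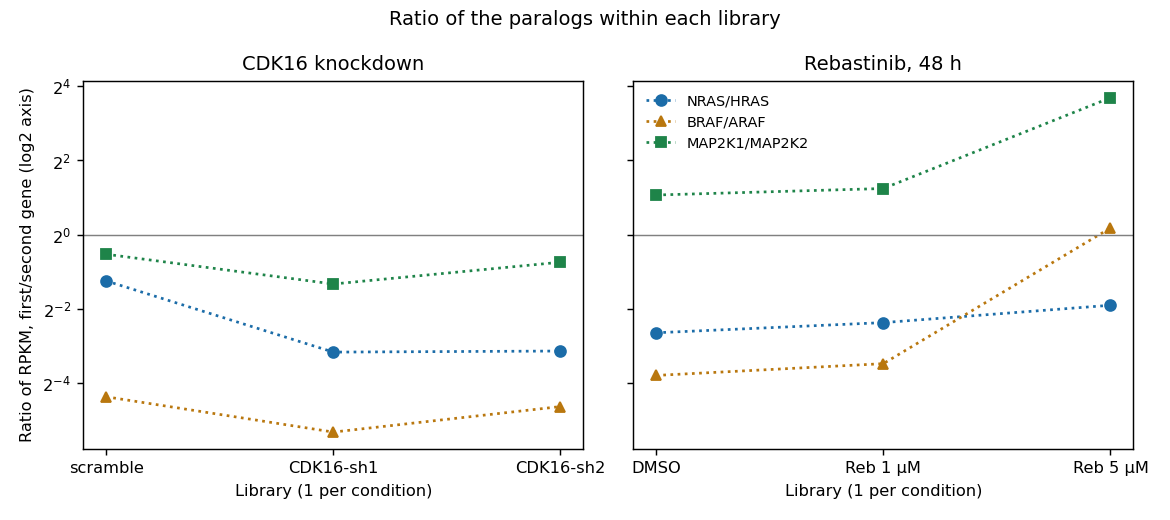
Ratio of the RPKM of the first to the second gene of each pair of paralogs (log2 axis) in the 3 libraries of each experiment; the grey line marks equal levels and dotted lines only join the values of 1 pair. The BRAF/ARAF ratio ends just above the line at 5 μM, where BRAF made up 53.0% of the pair and the counting intervals of BRAF and ARAF overlapped. The NRAS/HRAS ratio is lowest with the 2 hairpins.

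Across all genes, fold changes moved with GC content, with the low-GC end down and the high-GC end up for the hairpins and the reverse for Reb. In the lowest GC bin, that of NRAS and BRAF, the median log2 fold change was -0.41 with CDK16-sh1, -0.13 with CDK16-sh2, 0.15 at 1 μM and 0.43 at 5 μM. In the highest bin, that of HRAS, ARAF, MAP2K2 and MAPK3, the medians were 0.42, 0.11, -0.19 and -0.53. Pearson's r with GC content across genes, which are not independent replicates and share their libraries, was 0.44, 0.12, -0.30 and -0.20. Its part in the members' changes was measured by removing a smooth trend on GC content and gene length.

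NRAS then remained lower with both hairpins, at -0.59 and -1.41, and higher at 0.12 and 0.73 at the 2 doses, so that it was no longer past 2-fold at 5 μM. ARAF was at 0.39 and 0.28 with the hairpins and at -0.14 and -1.04 with the doses. MAP2K1 kept values close to its own, -1.02 and -0.16 with the hairpins and 0.07 and 1.35 with the doses, and BRAF was at 2.21 at 5 μM. MAP2K2 at 5 μM came to -0.70, short of 2-fold, while MAPK3 came to 1.22, past it. With CDK16-sh1 and CDK16-sh2, MAP2K2 was at -0.49 and 0.04 and MAPK3 at -0.69 and -0.03. BRAF was at 0.27 and 0.35 there, above the counting intervals given for it. HRAS was at 0.37 and 0.29 with the hairpins and 0.28 and 0.55 with the doses. NRAS with CDK16-sh2 and BRAF, ARAF and MAP2K1 at 5 μM were thus past 2-fold with and without the trend.

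**Figure D4:**
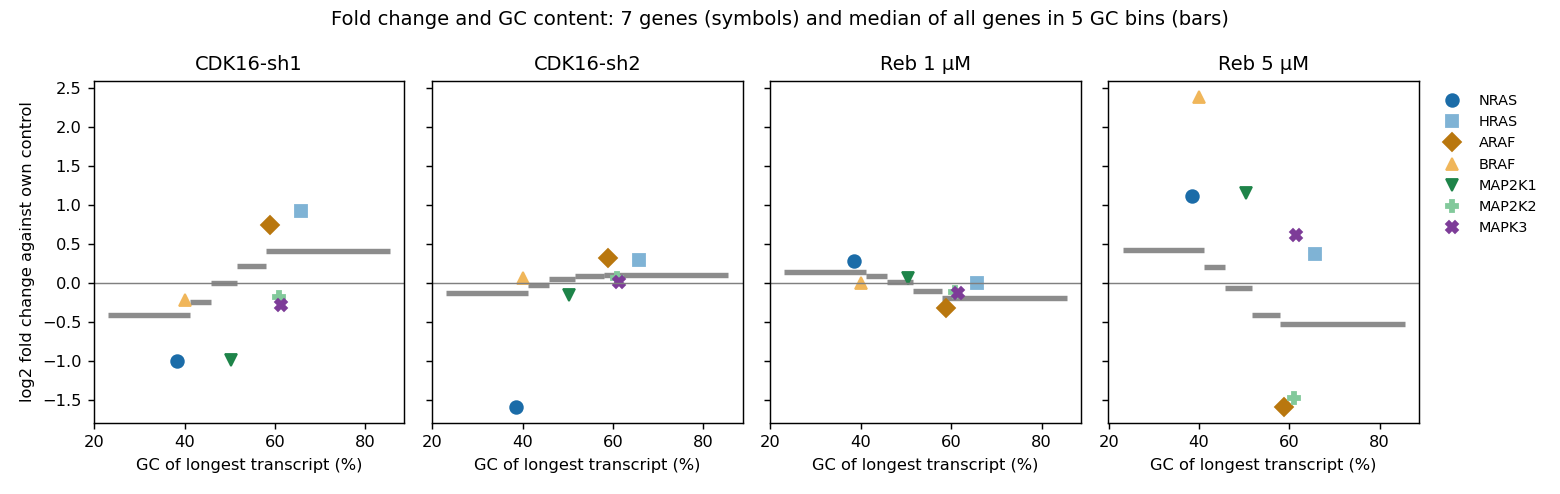
Log2 fold change of the 7 genes against the GC content of their longest transcript (%) in each treated library; grey bars give the median of all genes tested in each of 5 GC bins. The bars climb with GC content for the hairpins and descend for Reb, and NRAS with CDK16-sh2 and BRAF at 5 μM lie farthest from the bar of their bin.

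By the 4 log2 fold changes together, the genes nearest to each member were searched among 10554 genes whose mean reached 5 CPM in both experiments. HRAS had the closest neighbour, JTB, at a Euclidean distance of 0.0757, followed by E2F5 and VAT1. NRAS had the most distant one, VPS41, at 0.348, followed by NEDD1 and OSBPL8, so its combination of changes had few near matches. VPS41 was at -0.95 and -1.27 with the hairpins and at 0.15 and 1.09 with Reb. The neighbours were NOSIP, PHF23 and GPATCH4 for ARAF, CELF1, CTD-2410N18.5 and RNF11 for BRAF, MICU2, PLCG1-AS1 and FMR1 for MAP2K1, DHX8, NFX1 and LINC00667 for MAP2K2, and ZKSCAN8, CUL3 and ADIPOR1 for MAPK3. For these 5 members the nearest gene lay at 0.107 to 0.165.

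The wider pathway was described through 7 lists of 92 genes, of which 90 passed the filter in each experiment. The lists too were chosen with earlier results of these data known. Over all lists, 3 genes were at least 2-fold lower and 4 higher with CDK16-sh1 (3.33% and 4.44%), and 9 were lower and 0 higher with CDK16-sh2 (10% and 0%). At 1 μM Reb 5 were lower and 1 higher (5.56% and 1.11%), and at 5 μM 17 were lower and 24 higher (18.9% and 26.7%). These shares are read against those of all genes given for the members, and no test of the lists was made. At 5 μM the values below are those of TMM scaling, and under library totals the list medians of upstream genes, lipid processing and other RAS family genes turned from 0.22, 0.22 and 0.42 to -0.47, -0.47 and -0.27. Genes named by the rule in either experiment may be given values in the other, and the genes that it named in neither, picked once their values were known, are RASGRP3, GRB2, RASA2, CNKSR1, PEA15, HSP90AA1, PPP1CA, YWHAB, YWHAE, YWHAG, GOLGA7, RASSF1, RALA, MKNK1, CCND1, EPHA2, EPHA4, MAP2K6, MAPK7, MAPK11 and MAPK13.

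Upstream of RAS, the list of adaptors, exchange factors and GTPase-activating proteins had none of 18 tested genes past 2-fold with either hairpin, at medians of -0.37 and -0.24, which came to 0.05 and -0.02 with the GC and length trends removed. PTPN11, the phosphatase SHP2 that promotes RAS activation, was at -0.92 and -0.60 and the exchange factor SOS2 at -0.69 and -0.79. At 5 μM 4 genes rose, FRS2 (2.66), a docking protein of growth factor receptors, GRB2 (2.42), the adaptor that brings SOS to receptors, RASGRP3 (2.11) and RASA2 (1.65). Among the genes that fell was LZTR1 (-1.66), an adaptor that promotes degradation of RAS proteins, and the list median was 0.22. At 1 μM the exchange factor RASGRP3 fell from 52 to 16 counts (-1.58), while no other gene of the list passed 2-fold and the median was 0.01.

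The scaffolds and regulators of RAF, MEK and ERK held the largest share of rises at 5 μM, 10 of 22 genes, where 23.6% of all genes rose. The list had 1 fall and a median of 0.97, against -0.07 over all genes. Under library totals that median was 0.28, and with the GC and length trends removed it was 1.07. Some of the 10 rises, such as IQGAP1 (1.04) and PPP1CB (1.43), lay past 2-fold by less than the size of the -0.68 shift under library totals. Others, such as YWHAB (1.95), lay farther past it, and the count was not repeated under library totals. PEBP1, which binds RAF and keeps it from MEK, had 4597, 6129 and 10201 counts with DMSO, 1 μM and 5 μM, log2 fold changes of 0.39 and 2.26. Of the 14-3-3 genes, whose proteins bind phosphorylated RAF, YWHAB (1.95) and YWHAE (1.39) rose at 5 μM, and YWHAG (0.54) and YWHAZ (-0.75) were within 2-fold. KSR1, a scaffold of RAF and MEK, was at 0.30 and 0.66. At 1 μM 1 gene of the list fell, CNKSR1 (108 to 29 counts), and the median was -0.06. With CDK16-sh2 2 genes fell, IQGAP1 (-1.06), a scaffold of the cascade, and PEA15 (-1.16), an ERK-binding protein. With CDK16-sh1 the fallen genes were PPP1CA (-1.41), a phosphatase subunit, and the chaperone HSP90AA1 (-1.02), and CNKSR1 rose from 15 to 64 counts. The list medians were -0.19 with CDK16-sh1 and 0.01 with CDK16-sh2.

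Among the 9 genes of RAS lipid processing, which add and trim the membrane anchor of RAS proteins, none was past 2-fold with a hairpin or at 1 μM. At 5 μM 3 rose, LYPLA1 (1.94), a depalmitoylating enzyme, GOLGA7 (2.20), a partner of RAS palmitoyltransferase, and FNTB (1.27), a farnesyltransferase subunit. The 2 that fell were RCE1 (-1.23), a protease that trims farnesylated RAS, and PDE6D (-1.98), a carrier of farnesylated RAS that had 924 counts with DMSO and 108 at 5 μM. The medians over this list were 0.08, -0.17, 0.07 and 0.22 in the 4 comparisons. Of the 12 other RAS family GTPases and effectors, RASSF5, a RAS effector, fell with both hairpins, from 257 counts to 144 (-1.10) and 34 (-2.75), and RGL1 fell with CDK16-sh2 (-1.09). At 5 μM RALB (1.82) and RALA (1.26) rose and RRAS (-1.49) and RGL2 (-1.93) fell. The list medians were -0.04, -0.02, 0.08 and 0.42, and with CDK16-sh1 RRAS (1.55) and RASSF1 (1.46) rose.

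Downstream, none of the 7 kinases activated by ERK was past 2-fold with a hairpin or at 1 μM. At 5 μM 0 rose and 3 fell, MKNK1 (-1.62), RPS6KA1 (-1.44) and RPS6KA3 (-1.15). Of all genes 27.2% fell there, and 3 of 7 is too small a count to set the list apart. The list median was -0.80, against -0.07 over all genes, and came to -1.49 under library totals and -0.71 with the GC and length trends removed. RPS6KA3, which encodes the kinase RSK2, was at -0.57 and -0.79 with the hairpins, and RPS6KA5, which encodes MSK1, was at -0.66 and -0.80 with Reb. The medians in the other comparisons were 0.09, -0.22 and -0.08. Of the 10 ERK output genes, 3 fell with CDK16-sh2 at a list median of -0.70, where 7.62% of all genes fell. Among the 3 was DUSP6 (2178, 1859 and 959 counts with scramble, CDK16-sh1 and CDK16-sh2, at -0.50 and -1.08), a phosphatase of ERK whose transcription ERK drives. The other 2 were CCND1 (-1.27) and EPHA4 (-1.17). With CDK16-sh1 1 gene of this list rose, ETV4 (1.20), and the median was -0.05.

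In the Reb experiment ETV4, a transcription factor induced by ERK, fell at both doses, from 2249 counts to 1070 (-1.09) and 181 (-2.52). PHLDA1 fell likewise, from 64722 counts to 31857 (-1.05) and 6489 (-2.21). They were the 2 of 10 output genes past 2-fold at 1 μM, where 1.92% of all genes were at least 2-fold lower. The list median there was -0.36, and no member was past 2-fold. At 5 μM DUSP6 (-1.76) and EPHA2 (-1.77) fell as well, while EPHA4 (1.83) and SPRY4 (1.54), a feedback inhibitor of the cascade, rose. With 4 of 10 lower and 2 higher, against 27.2% and 23.6% of all genes, the list did not move as 1 group. Its median of -0.54 came to -0.14 with the GC and length trends removed and to -1.23 under library totals. In the JNK, p38 and ERK5 arms, parallel cascades built on other MAP kinases, 2 of 12 genes fell with CDK16-sh2, MAPK14 (-1.21) and MAPK9 (-1.42), and none passed 2-fold with CDK16-sh1. At 5 μM 3 of these 12 rose, MAPK8 (2.45), which encodes JNK1, MAP2K4 (1.55), a kinase above JNK, and MAP2K6 (30 to 285 counts), a kinase above p38. The 3 that fell were MAP2K7 (-1.28), MAPK13 (-1.17) and MAPK7 (-2.72), which encodes ERK5. At 1 μM MAPK11 fell (110 to 33 counts) and MAP2K6 rose (30 to 214 counts), and the list medians in the 4 comparisons were 0.00, -0.08, 0.13 and -0.39.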

How the data were processed

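Total RNA of MDA-MB-231 cells was made into stranded mRNA libraries and sequenced on a HiSeq X 10. The submitters' processing notes name Trimmomatic, featureCounts, Subread 1.5.1 and GRCh38. The aligner, the annotation release and the strand setting of the counting are not given in the sources used here. The authors deposited whole-number read counts per gene symbol, without normalization, and RPKM values computed from the same counts. Columns were matched to libraries by name, and no fold change or p-value of the authors was used.

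Counts were analysed in R 4.3.3 with edgeR 4.0.16. TMM factors were calculated on genes averaging 1 CPM or more, and log2 fold changes from CPM with a prior count of 2. Thresholds were 2-fold and, where the 2 treated libraries were taken as 1 group, an edgeR quasi-likelihood adjusted p of at most 0.05. Intervals are 95% Clopper-Pearson intervals for single genes and exact conditional (Fisher) intervals for ratios. Reads carry no molecular identifiers, and with 1 library per condition the intervals cover counting error only. The GC and length trends were removed by loess (span 0.3, degree 1). GC content was that of the longest GENCODE 29 transcript, known for 99.1% of genes, and length was the gene length deposited with the counts. DESeq2 1.42.0, library totals, the RPKM with 0.1 added, other filters, a prior count of 0.5 and 1.5-fold were tried as alternatives, and the fits were tested on simulated data. The coding stretches avoid frequently mutated codons, and some items are not reported here.

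The members and lists were chosen with earlier results of these data known. Named genes are the members, CDK16, genes whose exons overlap a member, the 3 nearest genes to each member and, per list and experiment, those with the largest same-direction falls and rises in both treated libraries, by the smaller absolute log2 fold change, at a mean of 5 CPM or more. Of these list genes, those that bear on a member's role are printed.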

Additional observations from a re-analysis of the deposited data

Results flagged for a closer look

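For NRAS, ARAF and MAP2K1 both hairpin libraries lay on one side of their control and both Reb libraries on the other side of theirs. The gap between the nearest log2 fold changes of the 2 experiments was 1.28 for NRAS, 0.64 for ARAF and 0.21 for MAP2K1. The difference was not tested, since no condition has a second library. NRAS and MAP2K1 were lower with both hairpins and higher at both doses, as were 1499 of 14412 genes tested in both experiments (10.4%), and ARAF was the reverse, as were 1686 (11.7%). Both libraries of an experiment share 1 control, so they do not count as 2 separate observations of a direction. These signs held for the 3 genes under DESeq2 size factors, library totals, the authors' RPKM, the other prior count and with the GC and length trends removed.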

How the results depend on the processing

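Of 28 log2 fold changes of the members, 27 kept their sign under DESeq2 size factors and 28 with a prior count of 0.5. Under library totals, the authors' RPKM and with the GC and length trends removed, 23 kept it in each case, and those that turned were values for BRAF, MAP2K2, MAPK3 and HRAS within 2-fold. Members at least 2-fold lower with CDK16-sh1 (0 in the report) numbered 1 with DESeq2 size factors, 2 under library totals, 2 from RPKM, 1 with the trends removed, 2 at 1.5-fold and 1 with TMM over all genes, a setting chosen after seeing the data, because NRAS and MAP2K1 lie just inside 2-fold. At 1.5-fold 2 members were higher with CDK16-sh1. At 5 μM 1 member rather than 2 was lower with the trends removed, and 1 rather than 3 was higher under library totals, from RPKM and with TMM over all genes. Removing the trends from the paralog ratios, also chosen after seeing the data, gave log2 changes (CDK16-sh1, CDK16-sh2, 1 μM, 5 μM) of -0.96, -1.71, -0.17 and 0.18 for NRAS/HRAS, -0.12, 0.068, 0.025 and 3.25 for BRAF/ARAF, and -0.53, -0.21, -0.0072 and 2.06 for MAP2K1/MAP2K2.

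Over all genes, with no filter on low counts, 2730 were lower and 2172 higher with CDK16-sh1, 3222 and 1897 with CDK16-sh2, 2267 and 2440 at 1 μM, and 8286 and 8070 at 5 μM. At a mean of at least 5 CPM these were 661 and 364, 758 and 154, and 122 and 42, where fewer genes were tested, and the counts at 5 μM stayed within 1.5 times of 4254 and 3695. Library totals gave 152 genes higher with CDK16-sh2 (336 under TMM), and 6792 lower and 1835 higher at 5 μM. With both doses as 1 group, edgeR called 12 genes, 0 under library totals and 3 without a filter. No paired analysis was possible because each condition has 1 library and no label pairs libraries across groups, and no library could be left out, since no residual degree of freedom would remain.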
